A study of Rattus norvegicus with 12 samples.

Results

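Genes for the receptors of serotonin, dopamine, noradrenaline, histamine and acetylcholine were followed in cultured rat hippocampal neurons whose network activity had been raised for 48 h. The members were the rows of the polyA gene table whose symbol, in any letter case, begins with Htr, Drd, Adra, Adrb, Hrh, Chrm, Chrna or Chrnb and a digit, which gave 50 of 26404 genes (49 symbols, since Chrm2 has 2 rows). Drd2, Hrh3 and Chrm2, in capitals in the table, are written here in the rat style. The cultures came from Sprague-Dawley rat hippocampus at embryonic day 18 and were enriched for neurons. The control group received vehicle and the picrotoxin group received picrotoxin, a blocker of the GABA-A receptor chloride channel, from 18 days in vitro, and RNA was taken at 20 days in vitro. Each group held 3 polyA libraries, numbered 3, 10 and 20 in both groups. The series calls them biological replicates. Since no label says that they are separate cultures, the p-values measure the spread between these libraries.

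Monoamines and acetylcholine reach the hippocampus mainly from cell groups elsewhere in the brain and tune how its neurons respond to glutamate and GABA. Most of their receptors couple to G proteins: the Gq-coupled ones activate phospholipase C, the Gs-coupled ones raise cyclic AMP, and the Gi/o-coupled ones lower it and open inward-rectifier potassium channels. Nicotinic receptors and the serotonin receptor Htr3a are different, being ion channels built from subunits, so that a subunit gene decides which channels a neuron can assemble.

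Values are scaled fragment counts, that is, the fragments assigned to a gene divided by a size factor of the library. The 6 libraries held between 11895725 and 13944774 fragments each. Marker genes were those of neurons with some glia: the summed level of 9 excitatory neuron markers lay between 29472 and 31556 in control libraries and between 19786 and 24882 in picrotoxin libraries, and that of 10 inhibitory neuron markers lay between 15332 and 22253 and between 18724 and 29918. Astrocyte markers (10 genes) summed to between 7520 and 10038 in controls and between 6719 and 9686 with picrotoxin. The 10 microglia markers summed to at most 12.6 in any library, and Itgam was at 0 in all 6. In these bulk samples, fewer cells of a type and less RNA per cell cannot be told apart.

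Of the 50 receptor genes, 32 had a mean of 10 or more scaled fragment counts over the 6 libraries and were tested, 8 had a mean of 1 to under 10, and 10 had a mean under 1. The near-absent genes included Htr2b, Htr3b, Hrh4, Chrna6, Chrna9, Chrna10, Chrnb3 and both rows of Chrm2. Htr2b, Chrna6 and the 2 Chrm2 rows were at 0 in every library, where a count of 0 allows up to 3 fragments in each; this covers counting error only. The printed locus of Htr2b overlaps that of Psmd1 (mean 5454.5), and how reads there were assigned is not stated. Every such overlap covered the receptor gene's whole printed span, even the 121412 bases for the microRNA gene Mir448 in Htr2c. A printed locus may thus be shared by overlapping genes, and the extent of overlap cannot be read from it. The low genes were Htr1d, Drd3, Drd4, Drd5, Adra2b, Adrb3, Chrna2 and Chrnb4. The threshold fell between Chrna2, Drd5 and Htr1d (means 8.60, 6.41 and 4.52) and Htr5b, Chrnb1 and Htr6 (means 11.3, 11.6 and 14.1). Drd5, which encodes a Gs-coupled dopamine receptor, was at 6.81, 0.899 and 2.12 scaled fragment counts in control libraries 3, 10 and 20 and at 8.75, 8.35 and 11.5 in picrotoxin libraries. Its groups did not overlap, but it lay below the threshold and was not tested in the main fit. An alternative fit with no filter beyond a mean above 0 included Drd5 among 46 receptor genes and called 0 of them higher.

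Of the 32 tested genes, 2 fell, 0 rose and 30 did not pass. Each gene was tested with limma on log2(value + 1), and a gene was called where the p adjusted by Benjamini-Hochberg over all 12605 tested genes lay below 0.05. The genes that fell were Chrna5 and Htr1a. Among all tested genes 1.67% rose and 1.58% fell. The share called in either direction was 6.25% of the receptor genes and 3.25% of all genes, and 5 receptor genes had an unadjusted p under 0.05. With the library number as a block in the same test, 3 receptor genes rose (Chrna1, Htr7 and Chrm1) and the same 2 fell, where 9.45% of all genes rose and 10.1% fell. The receptor share in that fit, 15.6%, lay below the 19.5% of all genes. The median log2 fold change of the receptor genes was -0.00, against -0.01 for all tested genes. In size, 29 of the 32 (90.6%) were under 0.5 on the log2 scale, against 90.7% of all tested genes. The 3 receptor genes beyond that size were Chrna5, Htr1a and Chrna1. The median size of the difference was 0.196 for receptor genes and 0.141 for all tested genes. Fold changes here and below are on the log2(value + 1) scale, which understates those of low genes.

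**Figure D1:**
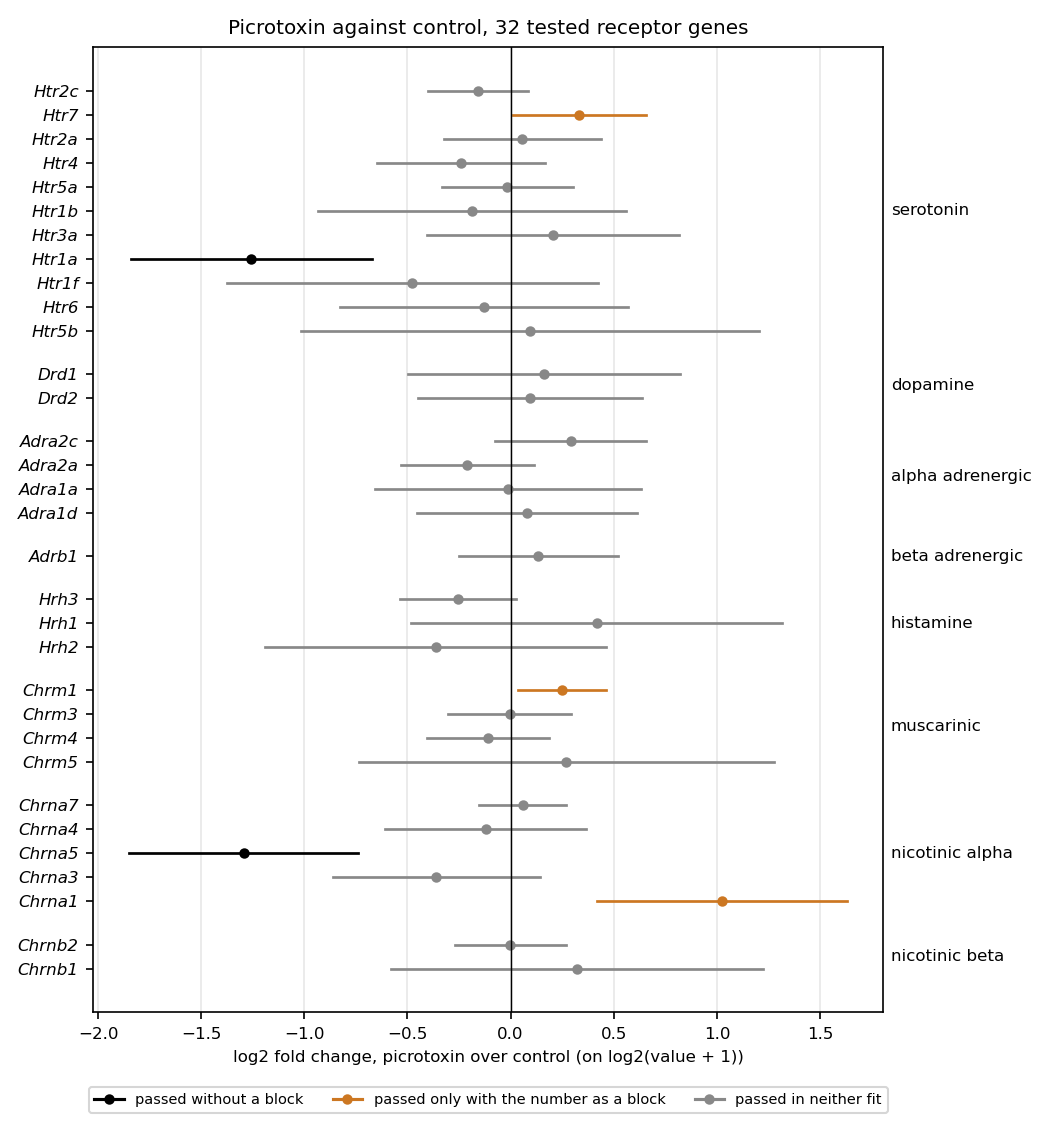
Log2 fold change of picrotoxin over control on the log2(value + 1) scale for the 32 tested receptor genes, ordered by family and level; points are estimates from limma without a block and bars their 95% intervals, black where a gene passed without a block, orange where it passed with the block alone and grey otherwise. Chrna5 and Htr1a lie at -1.29 and -1.26, Chrna1 lies at 1.02, and the other 29 lie between -0.48 and 0.42.

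Chrna5 encodes an accessory nicotinic subunit, which joins pentamers formed by other alpha and beta subunits and alters their calcium permeability and desensitization. Its level was 130.4, 109.7 and 88.0 scaled fragment counts in control libraries 3, 10 and 20 and 60.3, 41.8 and 32.4 in picrotoxin libraries 3, 10 and 20. All 3 picrotoxin values lay below all 3 control values, and libraries numbered 20 were lowest in both arms. The means were 109.3 ± 21.2 and 44.8 ± 14.2 (SD, n = 3), a 2.45-fold lower level with picrotoxin on the log2(value + 1) scale (log2 fold change -1.29, SE 0.25, 95% interval -1.85 to -0.74, adjusted p = 0.0232). With the number as a block its adjusted p was 1.3e-05. The call was lost without control library 3 (adjusted p = 0.0875), without control library 10 (0.107) and without picrotoxin library 10 (0.0755), in fits of 5 libraries, while the log2 fold change stayed between -1.53 and -1.09 under every alternative.

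Chrna5 (ENSRNOG00000013610) lies on chromosome 8 at 58143973 to 58172330, in coordinates as the authors' table prints them, whose build is not stated. It stands first by coordinate in a run of 3 nicotinic genes. Gaps of 3555 bases, between the printed loci of Chrna5 and Chrna3, and of 3147 bases, between those of Chrna3 and Chrnb4, separate them. Chrna5 and Chrna3 lie on opposite strands (below), so the first gap is not the distance between their starts. The printed span of Chrna5 also overlaps that of RGD1562140 (mean 0.174), so its edges may not be those of the gene. Chrna3 encodes a ligand-binding alpha subunit and Chrnb4 a beta subunit, which assemble together in autonomic ganglia and the habenula. Chrna3 was at 27.2, 28.8 and 28.6 scaled fragment counts in control libraries 3, 10 and 20 and at 20.4, 23.0 and 21.97 in picrotoxin libraries. These groups did not overlap either, but the difference was smaller and did not pass (log2 fold change -0.36, SE 0.22, 95% interval -0.86 to 0.14, adjusted p = 0.474; 0.328 with the block). Chrnb4 was too low to test, with means of 4.62 ± 2.74 and 3.04 ± 1.73 (SD, n = 3). On the other side, Psma4, a proteasome gene that ends 21897 bases before Chrna5, differed by -0.09 on the log2 scale (adjusted p = 0.766). Whether Chrna5 and its neighbours differ from each other in response was not tested.

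The promoters of the adjacent pair Chrna5 and Chrna3 and of Chrna1 are shown because these 3 nicotinic genes lay at different places in the comparison (lower, lower without passing, and higher with a block). Each runs from 250 bases before to 50 bases after the RefSeq start in build GRCr8, 5′ to 3′ on the gene's strand. The sequences and starts are those of RefSeq. Capitals mark the GC box GGGCGG on either strand in Chrna5 and Chrna3, and the E-box CANNTG in Chrna1.
Chrna5, chr8:64265629-64265928, plus strand: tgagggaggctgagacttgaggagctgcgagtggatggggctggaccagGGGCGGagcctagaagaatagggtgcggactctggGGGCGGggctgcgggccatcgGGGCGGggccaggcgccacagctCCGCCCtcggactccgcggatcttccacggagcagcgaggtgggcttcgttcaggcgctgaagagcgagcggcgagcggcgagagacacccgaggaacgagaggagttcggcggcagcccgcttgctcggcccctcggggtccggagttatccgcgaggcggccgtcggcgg
Chrna3, chr8:64311202-64311501, minus strand: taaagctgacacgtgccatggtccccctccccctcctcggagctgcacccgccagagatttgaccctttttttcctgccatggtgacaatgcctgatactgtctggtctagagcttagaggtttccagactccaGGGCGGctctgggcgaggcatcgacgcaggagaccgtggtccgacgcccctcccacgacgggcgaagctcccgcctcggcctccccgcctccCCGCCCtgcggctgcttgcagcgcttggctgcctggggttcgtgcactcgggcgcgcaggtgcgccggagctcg
Chrna1, chr3:78877304-78877603, minus strand: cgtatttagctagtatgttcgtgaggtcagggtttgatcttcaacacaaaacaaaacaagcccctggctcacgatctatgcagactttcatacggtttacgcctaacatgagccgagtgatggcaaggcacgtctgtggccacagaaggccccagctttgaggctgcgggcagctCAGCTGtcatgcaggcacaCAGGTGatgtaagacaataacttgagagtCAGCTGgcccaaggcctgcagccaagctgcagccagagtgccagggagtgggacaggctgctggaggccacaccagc

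The Chrna5 promoter held 4 GC boxes, that of Chrna3 held 2 and that of Chrna1 held 0. GC boxes are sites of the Sp factors. Chrna1 in turn held 3 E-boxes, the letters that basic helix-loop-helix factors bind, where Chrna5 held 0 and Chrna3 held 2. The GC content was 71.3% for Chrna5, 66.7% for Chrna3 and 55.0% for Chrna1. Of the 49 receptor symbols, 37 had a promoter in the RefSeq table; Htr1a had none. On both strands, with overlaps allowed, GGGCGG was found in 21 of these 37 (56.8%) and in 33.1% of all 33469 promoters of the table. CANNTG was found in 59.5% and 72.1%, and the TATA box TATAAA in 5.41% and 14.2%. The median GC content was 62.3% for receptor promoters and 51.7% for all. The cyclic AMP response element TGACGTCA was in 0 of 37 and in 1.83% of all, and the shorter TGACG, which it contains, in 18.9% and 21.2%. The AP-1 letters TGANTCA were in 0 of 37 and 7.33% of all, and the Egr letters GCGNGGGCG, which can overlap a GC box, in 8.11% and 4.98%. A match says only that these letters stand in this window.

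Htr1a was the other gene that fell. It encodes a Gi/o-coupled serotonin receptor of hippocampal pyramidal and granule cells that opens inward-rectifier potassium channels. Control libraries 3, 10 and 20 had 34.1, 59.3 and 45.6 scaled fragment counts and picrotoxin libraries 16.5, 20.9 and 17.8. The groups did not overlap, and the control libraries spread more widely than the picrotoxin libraries, whose values lay close together. The means were 46.3 ± 12.6 and 18.4 ± 2.24 (SD, n = 3), a 2.39-fold lower level (log2 fold change -1.26, SE 0.26, 95% interval -1.84 to -0.67, adjusted p = 0.0317; 6.2e-04 with the block). The call was lost in fits of 5 libraries without control library 10 (adjusted p = 0.169), control library 20 (0.0958), picrotoxin library 3 (0.108) or picrotoxin library 10 (0.0686). Its locus (ENSRNOG00000010254, chromosome 2, 55362661 to 55363930) spans 1269 bases, a multiple of 3, so that the counts may cover the coding stretch alone. Its nearest tested neighbours, Rnf180 and Ipo11, lie 373403 and 1687001 bases away and had log2 fold changes of -0.24 and -0.08 (adjusted p = 0.406 and 0.787).

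In the same libraries the markers of excitatory neurons moved with these falls: their summed level was lower in all 3 picrotoxin libraries than in any control library, by the ranges given above. Of the 9 tested, 2 fell (Camk2a and Neurod1), 1 rose (Slc17a6) and 6 did not pass, with a median log2 fold change of -0.25. Single markers ran both ways, from -1.04 for Camk2a to 0.63 for Slc17a6. Their part in the falls was not tested.

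Chrna1, Htr7 and Chrm1 passed with the number as a block and not without it. Chrna1 encodes the alpha subunit best known from the neuromuscular junction. It was at 9.73, 10.8 and 9.54 scaled fragment counts in control libraries 3, 10 and 20 and at 19.4, 24.0 and 20.9 in picrotoxin libraries. The groups were far apart for their spread, at means of 10.0 ± 0.672 and 21.5 ± 2.33 (SD, n = 3), but rested on at most 24.0 scaled fragment counts in any library. The level was 2.03-fold higher (log2 fold change 1.02, SE 0.27, 95% interval 0.42 to 1.63, adjusted p = 0.0742; with the block 0.02). Limma without trend and robust variance called it as well (adjusted p = 0.0199), with an SE of 0.11 for this gene. Of the 18 alternatives that tested Chrna1, only these 2 called it.

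Htr7 encodes a Gs-coupled serotonin receptor. Its control libraries 3, 10 and 20 had 489.5, 408 and 532 scaled fragment counts and its picrotoxin libraries 544, 539.9 and 724. Each picrotoxin library lay above the control library of its number, and the lowest picrotoxin value, 539.9, lay just above the highest control value, 532. The level was 1.26-fold higher (log2 fold change 0.33, SE 0.14, adjusted p = 0.264; with the block 0.00623). Chrm1, the main Gq-coupled muscarinic receptor of pyramidal neurons, was at 755, 717 and 731 in control libraries and at 792, 934 and 899 in picrotoxin libraries. Its groups did not overlap, and the level was 1.19-fold higher (log2 fold change 0.25, SE 0.10, adjusted p = 0.207; with the block 0.0244).

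**Figure D2:**
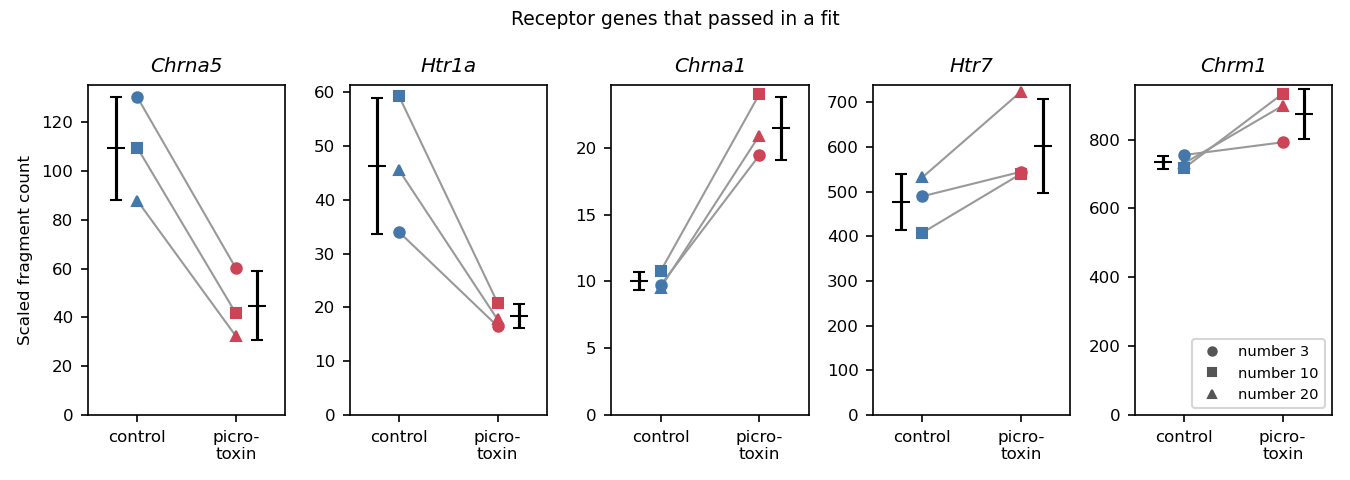
Scaled fragment counts of the 5 receptor genes that passed in either fit, for control (blue) and picrotoxin (red) libraries; grey lines join libraries of the same number, and black bars give the mean and SD of each group (n = 3). Chrna5 and Htr1a are lower in all 3 picrotoxin libraries, and Chrna1, Htr7 and Chrm1 are higher in all 3.

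Over all tested receptor genes, groups without overlap occurred 3 times upward (Chrna1, Htr7 and Chrm1, 9.38%) and 4 times downward (Chrna5, Htr1a, Chrna3 and Hrh3, 12.5%). Among all tested genes the shares were 11.5% and 11.6%, so the receptor genes lay near the background on this count. In the authors' deposited table, Cuffdiff gave a q under 0.05 for 3 of the 30 receptor genes with status OK (Chrna5 and Htr1a at 0.00155 and Chrna1 at 0.0494), against 7.51% of the 12405 genes with that status.

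Levels differed far more between receptor genes than between groups. To compare genes, each library's value was put on the FPKM scale (fragments per kilobase of transcript and per 1e6 fragments) with the ratio that the authors' FPKM of the control group gives for that gene. Chrm1 stood highest, between 45.5 and 59.3 over the 6 libraries, followed by Chrna7 (34.2 to 40.3), Chrnb2 (25.5 to 31.7), Htr2c (19.4 to 26.6), Chrm3 (17.8 to 22.9), Htr7 (10.8 to 19.2) and Htr2a (9.41 to 14.6). The first 3 were separated from their neighbours, except that Chrnb2 overlapped Htr2c, and from Htr2c downward each range overlapped that of the next gene. These 7 genes were the ones with 10 FPKM or more in a group, and 3 tested genes (Htr5b, Htr6 and Chrnb1) were under 1 FPKM in both groups. Of the 17 loci that span less than 3000 bases, 14 had a span that is a multiple of 3, Chrm1, Chrm3 and Htr1a among them, so that their lengths may leave out UTRs.

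**Figure D3:**
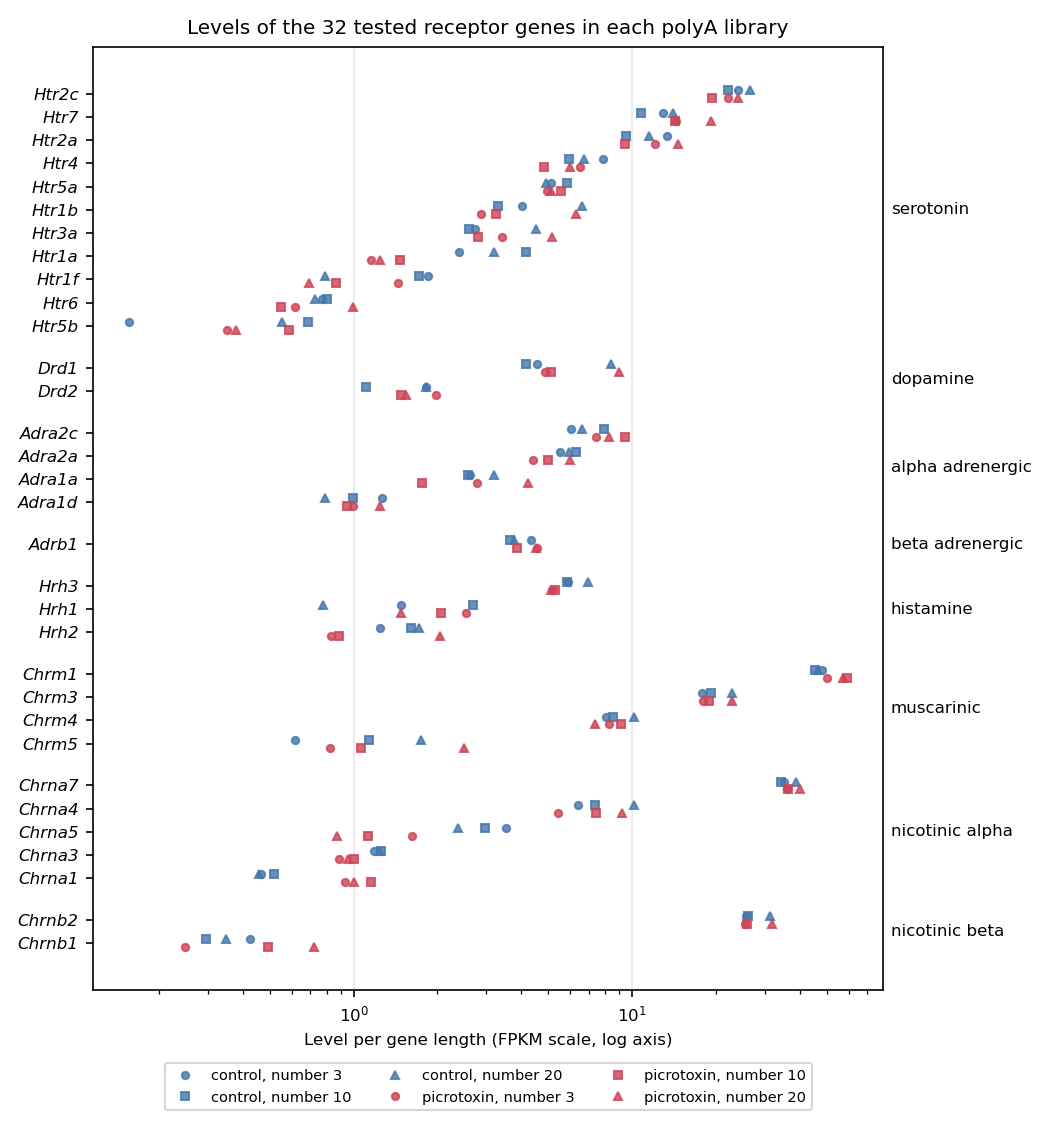
Level per gene length (FPKM scale, log axis) of the 32 tested receptor genes in each of 3 control (blue) and 3 picrotoxin (red) libraries, by family; the symbol shape gives the library number. Chrm1, Chrna7, Chrnb2, Htr2c and Chrm3 stand highest. The groups do not overlap for Chrna5, Htr1a, Chrna1, Chrna3, Hrh3, Htr7 and Chrm1.

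Of 14 serotonin receptor genes, 11 were tested, of which 1 fell and 10 did not pass, with log2 fold changes from -1.26 to 0.33 and a median of -0.13. Htr2c, a Gq-coupled receptor, had the highest level per length. Control libraries 3, 10 and 20 gave 1218, 1122 and 1347 scaled fragment counts for it and picrotoxin libraries 1117, 979 and 1213. Each picrotoxin library was lower than the control library of its number, but the groups overlapped (log2 fold change -0.16, 95% interval -0.40 to 0.09, adjusted p = 0.525). Htr2a, also Gq-coupled, had a log2 fold change of 0.06 (95% interval -0.33 to 0.44). Htr4 and Htr6, which are Gs-coupled, had log2 fold changes of -0.24 and -0.13. The Gi/o-coupled Htr1b, Htr1f and Htr5a were at -0.19, -0.48 and -0.02, with intervals that for Htr1f ran from -1.37 to 0.42. Whether Htr1a differs from them in response was not tested. Htr3a, the subunit every serotonin-gated channel needs, was tested and did not pass (0.21, 95% interval -0.41 to 0.82), while Htr3b, its partner subunit, had about 1 fragment in each of 2 libraries and 0 in the others. Htr5b, at 11.3 on average, had a log2 fold change of 0.09 with an interval of -1.016 to 1.202.

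Dopamine receptor transcripts were carried by Drd1 and Drd2, and 0 of these 2 passed. Drd1, Gs-coupled, was at 123, 112 and 226 scaled fragment counts in control libraries 3, 10 and 20 and at 131, 138 and 242 in picrotoxin libraries. Both libraries numbered 20 were far above the other 4, so the spread within a group exceeded the difference between groups (log2 fold change 0.16, 95% interval -0.50 to 0.82, adjusted p = 0.845). Drd2, Gi/o-coupled, was at 59.4, 36.0 and 59.3 and at 64.2, 48.0 and 50.2, with overlapping groups (log2 fold change 0.09, adjusted p = 0.894). Drd3 and Drd4 had means of 1.00 and 1.31 over the 6 libraries.

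Of 5 alpha and 3 beta adrenergic genes, 4 and 1 were tested and 0 passed. Adra1b was not among the members, although the authors' UTR lengths include it, so the alpha genes here are not the whole family. The Gi/o-coupled Adra2c and Adra2a had the highest levels per length. Adra2c was at 94.4, 124 and 104 scaled fragment counts in control libraries 3, 10 and 20 and at 117, 148 and 129.7 in picrotoxin libraries, higher with picrotoxin in each number (log2 fold change 0.29, 95% interval -0.07 to 0.66, adjusted p = 0.416). Adra2a was at 189, 216 and 203 and at 152, 171 and 206, with the opposite sign (-0.21, 95% interval -0.53 to 0.11, adjusted p = 0.526). The difference between the pair was not tested. The Gq-coupled Adra1a and Adra1d had log2 fold changes of -0.01 and 0.08. Adrb1, the Gs-coupled beta receptor of cortex and hippocampus, was at 69.1, 58.4 and 60.4 in control libraries and 72.9, 61.6 and 72.2 in picrotoxin libraries (log2 fold change 0.13, 95% interval -0.25 to 0.52, adjusted p = 0.769). Adrb3 had a mean of 1.67.

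Of 4 histamine receptor genes, 3 were tested and 0 passed. Hrh3, a Gi/o-coupled receptor that also acts as a presynaptic autoreceptor, was at 194.6, 193 and 229 scaled fragment counts in control libraries 3, 10 and 20 and at 170.1, 175 and 169 in picrotoxin libraries. Its groups did not overlap, yet the difference was small and did not pass (log2 fold change -0.25, 95% interval -0.54 to 0.03, adjusted p = 0.342; with the block 0.116). Hrh1, Gq-coupled, was at 26.3, 47.6 and 13.8 and at 44.7, 36.5 and 26.2, with overlapping groups (log2 fold change 0.42, 95% interval -0.48 to 1.32). Hrh2, Gs-coupled, had a log2 fold change of -0.36 (95% interval -1.19 to 0.46).

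Of 6 rows of muscarinic receptor genes, 4 were tested and 0 passed without a block. Chrm3, Gq-coupled, was at 371, 399 and 477 scaled fragment counts in control libraries 3, 10 and 20 and at 374, 394 and 475 in picrotoxin libraries, almost the same values number by number. Its log2 fold change was -0.00 (95% interval -0.30 to 0.29, adjusted p = 0.993), and with quantile scaling it was 0.00 with the other sign. Chrm4, Gi/o-coupled, had a log2 fold change of -0.11 (95% interval -0.41 to 0.19). The printed locus of Chrm4 overlaps that of Mdk. Since no source used here states the strand of the counts, reads of the pair (means 289.9 and 90.6) may not be fully separated. Chrm5, Gq-coupled, was at 17.5, 32.4 and 49.8 and at 23.3, 30.3 and 71.1. Its log2 fold change of 0.27 had a wide interval (-0.74 to 1.28).

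Among 9 nicotinic alpha and 4 nicotinic beta genes, 5 and 2 were tested, of which Chrna5 fell. The subunits of the common brain receptors stood highest, and 0 of Chrna7, Chrna4 and Chrnb2 passed the test. Chrna7, which forms homomeric channels, was at 887, 861 and 976 scaled fragment counts in control libraries 3, 10 and 20 and at 907, 915 and 1014 in picrotoxin libraries (log2 fold change 0.06, 95% interval -0.15 to 0.27, adjusted p = 0.823). Chrna4 and Chrnb2 together form the main heteromeric receptor of the brain. Chrna4 was at 180.0, 208 and 286 and at 153, 209.9 and 259 (log2 fold change -0.12, 95% interval -0.61 to 0.37), and Chrnb2 was at 678, 692 and 826 and at 675, 684 and 839 (-0.00, 95% interval -0.27 to 0.27). For both, the libraries numbered 20 were highest in both groups and the groups overlapped. Chrnb1, the beta subunit of muscle receptors, was at 11.7, 8.09 and 9.54 in controls and at 6.80, 13.6 and 19.9 with picrotoxin (0.32, 95% interval -0.58 to 1.22, adjusted p = 0.762). The intervals of Chrna4, Chrna7 and Chrnb2 do not reach the -1.29 of Chrna5, but the difference between the subunits was not tested.

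The library number went with the level of many tested genes, receptor genes among them. In 12 of the 32 tested genes (37.5%) the library numbered 20 was the highest of its group in both groups, against 29.0% of all tested genes, and in 3 (9.38%) it was the lowest in both, against 24.9%. The 12 were Htr1b, Htr2c, Htr3a, Htr7, Drd1, Adra1a, Hrh2, Chrm3, Chrm5, Chrna4, Chrna7 and Chrnb2, and the 3 were Chrna5, Htr1f and Hrh1. The summed level of the 10 inhibitory neuron markers moved with the same libraries: it was 22253 in control library 20 against 16466 and 15332 in control libraries 3 and 10, and 29918 in picrotoxin library 20 against 18880 and 18724. The summed level of the 9 excitatory neuron markers was lowest in number 20 of both groups. It was 29472 against 29739 and 31556 in controls, and 19786 against 23261 and 24882 with picrotoxin. The part of either sum in the receptor levels was not tested.

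**Figure D4:**
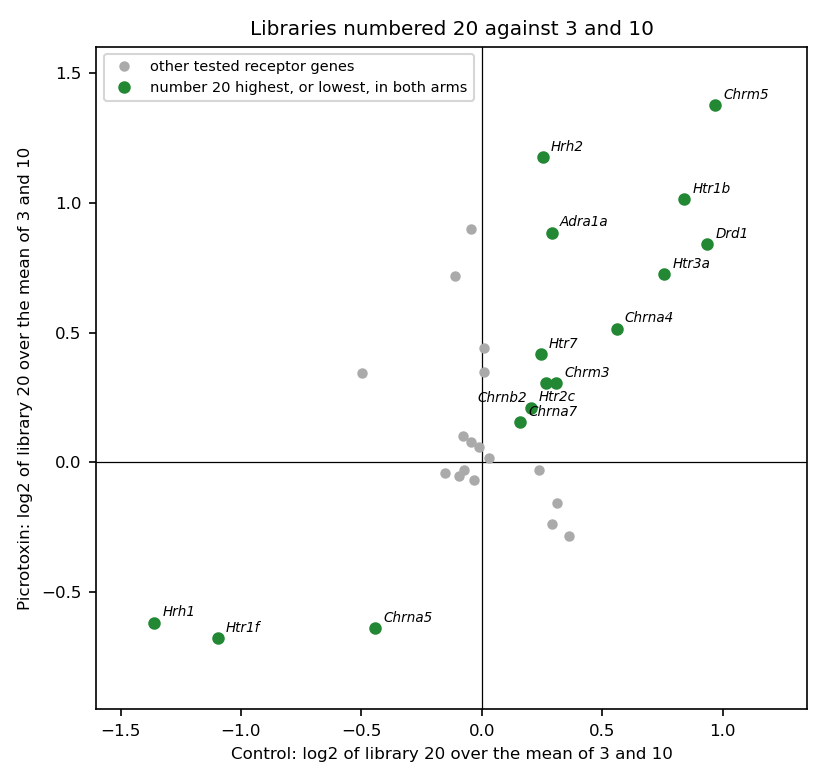
Log2 ratio of the library numbered 20 to the mean of libraries 3 and 10 (values plus 1), in the control group (horizontal axis) and in the picrotoxin group (vertical axis), for the 32 tested receptor genes. The 12 genes highest in number 20 in both groups lie at the upper right, with Chrm5 farthest out, and Hrh1, Htr1f and Chrna5 lie at the lower left.

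Other genes of these transmitter systems were read from 7 lists with 98 genes, of which 95 were matched and 84 tested. Of the 84, 3 rose and 5 fell, and with the number as a block 17 rose and 22 fell. The share called was 9.52% against 3.25% of all tested genes, and with the block 46.4% against 19.5%. Since the lists were chosen with earlier results of these data known, these shares are not an independent comparison with the background. The median log2 fold change was -0.08. In the list for synthesis, transport and breakdown of the transmitters, 2 of 15 tested genes rose and 0 fell (6 and 0 with the block). Th, tyrosine hydroxylase, the first enzyme of catecholamine synthesis, was at 15.6, 18.0 and 24.4 scaled fragment counts in control libraries 3, 10 and 20 and at 53.5, 65.8 and 83.7 in picrotoxin libraries. Every picrotoxin library was over the highest control (log2 fold change 1.76, SE 0.26, adjusted p = 0.00850), and the call held without any single library. Tph2, the neuronal tryptophan hydroxylase of serotonin synthesis, was at 26.3, 17.1 and 23.3 and at 49.6, 43.9 and 94.1 (log2 fold change 1.39, SE 0.31, adjusted p = 0.0412). The call of Tph2 was lost without each single library except picrotoxin library 20 (adjusted p = 0.0607 to 0.172), with quantile scaling (0.0513), with limma voom (0.0524) and without trend and robust variance (0.0872). Dbh, which makes noradrenaline from dopamine, was at 5.84, 11.7 and 15.9 and at 20.4, 24.0 and 30.3, a log2 difference of 1.17 that passed with the block (adjusted p = 0.00852) and not without it (0.126). The vesicular monoamine transporters were detected in every library, Slc18a1 between 61.5 and 105 and Slc18a2 between 24.3 and 84.7 scaled fragment counts. The plasma membrane transporters of monoamine neurons were near absent: Slc6a2, and Fev of serotonin neurons, were at 0 in every library, Slc6a3 had at most 1.80 and Slc6a4 at most 3.595. The summed level of the 9 matched markers of monoaminergic and cholinergic cells, which include Th and Tph2, was 87.6 to 102.8 in control libraries and 166 to 274 in picrotoxin libraries; its part in the receptor results was not tested.

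In the cyclic AMP list, 2 of 24 tested genes fell and 0 rose (5 and 6 with the block): Akap5, an anchor of protein kinase A at synapses (log2 fold change -0.86, adjusted p = 0.0246), and Adcy1, a calmodulin-stimulated adenylyl cyclase (-0.43, adjusted p = 0.0313). In the phospholipase C list, 3 of 12 fell and 0 rose, among them the protein kinase C gene Prkce (-0.38, adjusted p = 0.0339) and the IP3 receptor Itpr1 (-0.39, adjusted p = 0.0383). The list median was -0.29, and with the block 8 fell and 1 rose. Of the partners of nicotinic receptors, 1 of 9 rose and 0 fell (2 and 2 with the block): Tmem35, a chaperone that nicotinic receptors need to assemble (log2 fold change 0.46, adjusted p = 0.0410). Akap5, Adcy1, Prkce, Itpr1 and Tmem35 each lost their call without control library 10 (adjusted p = 0.0953 to 0.185) and without some other single libraries, and each kept its sign.

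In the remaining lists 0 genes passed without a block. Of 12 G protein alpha subunits, 1 rose and 4 fell with the block; Gnas and Gnao1, the most abundant, had log2 fold changes of 0.19 and -0.14. Of 6 receptor kinases and arrestins, 1 fell with the block, and Adrbk1 and Arrb1 were at -0.17 and -0.09. Of 6 channels that these receptors open or close, 1 rose and 2 fell with the block. Kcnj3, an inward-rectifier subunit, was at 0.20 (adjusted p = 0.336; with the block 0.0461).

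A further readout was the UTR length per group in the authors' deposited table, which pools the replicates and so allows no test. It lists 22 receptor symbols, of which 14 have a single entry and a 3′ UTR length above 0 in both groups. In 9 of the 14 the 3′ lengths of the groups differed by at most 50 bases, among them Htr2a and Htr2c (2948 and 2621 bases in both groups), Chrna7 (3693 and 3714) and Chrnb2 (3616 and 3619). In 4 they differed by more than 500 bases. No shares over all genes are given here, so these counts cannot be called high or low. For Htr7 the table gives 1567 bases in control and 10521 in picrotoxin libraries, and for Htr4 568 and 3125. For Chrna5 it gives 4129 and 44, and for Adra1a 13558 and 2720. The 5′ lengths in the same entries were 5401 and 44 for Chrna5 and 14075 and 3237 for Adra1a. For Htr7 they were 103 and 163, and for Htr4 47 and 47. In Chrna5 and Adra1a both ends thus differed between groups, so these entries cannot be read as a change of the 3′ UTR alone. No source used here says how transcript ends were set, and Htr7, Htr4, Chrna5 and Adra1a had means of 539.6, 85.8, 77.1 and 62.8 scaled fragment counts.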

How the data were processed

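PolyA RNA was read in 6 libraries, 3 per group. The submitters' processing notes list the tools STAR (2.3.1z12), bedtools (2.22.1), Cufflinks (2.2.1), Cuffnorm and Cuffdiff without saying what each did, and no source used here states the genome build. In the gene expression table that the authors deposited, each value is a signal for 1 gene in 1 library. Of the values above 0, 99.9% were whole multiples, within 0.1, of a step of 0.899 to 1.06, as fragment counts divided by a size factor would be. Per the file headers, the authors' comparison table holds the FPKM of each group, the log2 fold change and test statistic (both treated as a score), and the p-value with its q-value. UTR lengths in bases come from another deposited table.

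Genes with a mean of 10 or more (12605) were tested two-sided by limma 3.58.1 in R 4.3.3, with trend and robust variance, on log2(value + 1). Adjustment was by Benjamini-Hochberg, with a threshold of 0.05. Libraries of the same number deviated together from their group means (correlations 0.40, 0.39 and 0.53 over genes, and -0.36 to 0.03 between numbers). Deviations from a group mean cancel out within the group, so the values between numbers are not independent of those within a number. The shared deviation was taken as pairing, and the number was used as a block in an alternative fit. On simulated data, 100 genes were changed by 0.5 and 100 by 1 (log2). Without the block, 11% and 70% of them were called, beside 0 false calls. With the block, 78% and 92% were called, beside 5. The simulated libraries of the same number shared a deviation taken from these data. The gain with the block was thus built in, and the simulation cannot show whether the block is right for these libraries.

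The members and lists were chosen with earlier results of these data known. Genes named with values are members called in either fit, the 2 with the highest FPKM in each family and those next to the threshold, and in each list up to 4 called genes or the 2 most abundant; others were named after their values were seen. Alternatives were the block, pseudocounts of 0.1 and 5, filters at an FPKM of 1, a mean of 50 or a mean above 0, scaling by median ratios or by quantiles, limma with neither trend nor robust variance, and omission of each library. Limma voom and omission of both libraries of a number were added after the data were seen. Small RNA libraries were not used here, and the values of some genes are not reported here.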

Additional observations from a re-analysis of the deposited data

How the results depend on the processing

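The count of receptor genes called was 2 under every alternative except these: 5 with the number as a block, 1 with a mean of 50 or more (where Htr1a was not tested), 0 to 2 with single libraries left out, and 0 without both libraries of number 3 or 10, where the unadjusted p was under 0.05 for 4 and 3 receptor genes. The 8 calls among pathway genes became 39 with the block, 2 without trend and robust variance, 1 to 12 with single libraries left out, 0 without both libraries of number 3 or 10 (24 and 18 at an unadjusted p under 0.05) and 21 without both of number 20. Over all genes, 410 calls became 2459 with the block, of which 408 were shared, 156 without trend and robust variance, and 67 to 897 with single libraries left out. Without both libraries of number 3, 10 or 20 there were 0, 3 and 1044 calls (1407, 1121 and 2910 at an unadjusted p under 0.05). In limma without trend and robust variance, Chrna5 lost its call (adjusted p = 0.066) and Chrna1 gained one, so that the count stayed at 2. Of the called genes named here, 0 changed sign. Among uncalled genes near 0, the log2 fold change changed sign for Chrm3 (0.002 with quantile scaling, 0.026 with voom, 0.004 without number 10) and Chrnb2 (0.002, 0.030 and 0.008, and 0.003 without number 3). It was -0.009 for Chrnb1 without number 20, -0.063 for Drd2 and 0.062 for Htr6 without number 10, and -0.358 for Htr5b without number 3. With single libraries left out, Chrm3 ran from -0.106 to 0.099, Chrna4 from -0.298 to 0.082, Chrnb1 from -0.000 to 0.709, Chrnb2 from -0.102 to 0.089, Drd1 from -0.118 to 0.475, Drd2 from -0.142 to 0.212, Hrh1 from -0.017 to 0.842, Htr5b from -0.487 to 0.456, Htr6 from -0.368 to 0.028 and Arrb1 from -0.225 to 0.048. Apart from the smaller number of libraries, the cause of these shifts was not tested. The 2 planned count tests were not run, since some values lie far below a single fragment.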
